A study of Nothobranchius furzeri with 20 samples.

Results

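The turquoise killifish (Nothobranchius furzeri) is an annual fish that ages within months, and its brain is used to study how a vertebrate brain changes over a short life. Swimming against a current in a tunnel is a way to give fish regular physical exercise. Described here is the change between 9 and 27 weeks of age among brains of fish that had the swim tunnel, restricted to 10 of the 20 libraries of the study: the 27-week libraries titled JM132 to JM136, called the first 27-week set, and the 9-week swim-tunnel libraries titled JM117 to JM121. The brain is a mixture of neurons, glia, vascular and immune cells, and RNA-seq of the whole organ gives 1 level per gene over all of them.

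All fish were males, of strain MZM-04/10p, which derives from the wild, and total RNA of the brain was the starting material of the libraries. The first 27-week set (n = 5) and the 9-week swim-tunnel group (n = 5) share the label swim-tunnel and differ in age. The remaining libraries are 5 of 9 weeks labelled none for perturbation, called unexercised, and 5 more of 27 weeks with the swim tunnel, titled JM139 to JM144, called the second 27-week set. The labels give neither the length of the exercise nor the time of sampling, and unexercised fish of 27 weeks were not analysed here. No label says that each library came from another fish, so p-values measure the spread between these libraries, which may in part be technical.

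The first 27-week set was chosen by title number, but that division was selected on expression values seen earlier, in which the 27-week libraries parted along that line and replicate 3 of the second set stood apart. As a description of the latter, 685 genes of replicate 3 exceeded the average of the remaining 19 libraries by 4-fold or more, against 6 to 151 genes in each of those, and its 10 most counted genes took 10.4% of its counts, against 3.05% to 3.72%. The highest of those other counts, 151, was that of replicate 4 of the first 27-week set, and values without that library are given where it moved a result. Title numbers are not labelled as a batch, and the 2 ages hold no title number range in common, so age and anything that follows the title numbers cannot be told apart.

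The 10 libraries held 15048627 to 34843199 counts. Totals averaged 21681356 ± 1989590 (SD, n = 5) in the first 27-week set and 21288176 ± 7831296 (n = 5) in the 9-week swim-tunnel group, and the number of genes with a count averaged 21704 ± 91.6 and 21622 ± 240 (exact permutation p = 0.944 and 0.540, two-sided). Genes carry deposited identifiers only. The files do not pair them with names, 0 of 26739 matched the RefSeq gene table of assembly NfurGRZ-RIMD1, and gene functions, gene lists, marker genes of the brain and sequences are therefore not given.

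Along the second principal component of the 10 libraries, age groups separated, while the first component cut across them. Over 19060 genes the first component held 25.7% of the variance and the second 23.8%. On the second, the first 27-week set lay between 10.7 and 50.2 and the 9-week swim-tunnel libraries between -28.9 and -16.9. On the first, replicate 1 of the first 27-week set lay at 52.0 and its other 4 libraries between -17.7 and -0.396. The 9-week libraries split on the same axis, with replicates 1, 3 and 5 between 19.6 and 21.8 and replicates 2 and 4 at -34.6 and -34.3. Differences between the 2 group means held 21.7% of all variance over these genes. Any split of the 10 libraries holds some variance between its means, and this share was not compared with that of other splits.

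**Figure D1:**
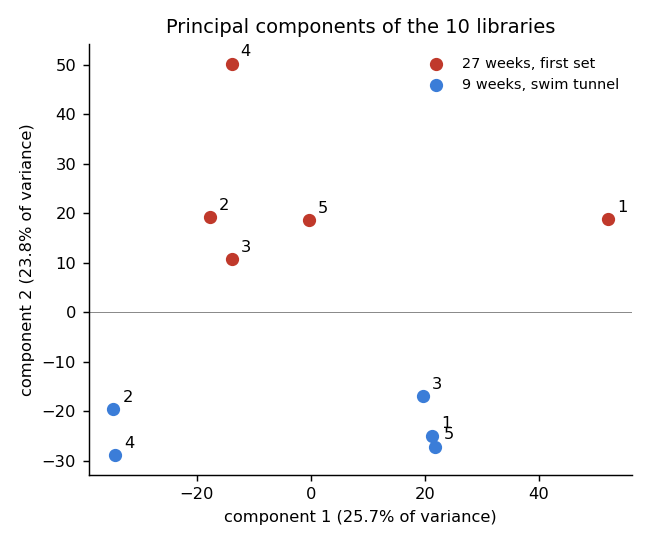
Principal components 1 and 2 of log2 CPM (counts scaled to the library total with TMM factors) over 19060 genes, 1 point per library, labelled with its replicate number. The age groups are apart on the vertical axis, and the spread on the horizontal axis lies within each group.

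The central question was how the brain of swim-tunnel fish differed between 9 weeks and 27 weeks. A broad set of genes changed by small amounts, and the few large changes were mostly rises. Of 19060 genes tested with edgeR's quasi-likelihood test, 3131 (16.4%) passed a Benjamini-Hochberg adjusted p of 0.05. The 27-week libraries were higher in 1783 of them (9.35% of genes tested) and lower in 1348 (7.07%). The first 27-week set was picked with expression already seen, so these p-values are not free of that choice. Against the same 9-week swim-tunnel group, the second 27-week set gave 114 genes of 19248 tested, and 264 of 19367 without its outlying replicate 3. Leaving out 1 library in turn gave 26 to 264 there. The 3131 changes are those of the first set, and how far they hold for 27-week fish in general was not tested. The tissue was sequenced in bulk, so fewer cells of a type and less RNA per cell cannot be told apart in any of these changes.

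Most of the 3131 changes were below 2-fold. Their median size was 0.36 on the log2 scale, with quartiles of 0.27 and 0.54, and 2448 were smaller than 1.5-fold. The median rise was 0.38 and the median fall -0.34. Changes over 2-fold were found in 203 genes that rose and 32 that fell, and changes over 4-fold in 39 and 4. The median over all 19060 genes was 0.01, with quartiles of -0.15 and 0.19.

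The 5 libraries of one group lay wholly above or below the 5 of the other in 2694 genes (14.1%). Of these, 1656 (8.69%) were higher and 1038 (5.45%) lower at 27 weeks. These counts used CPM on library totals, without scaling factors. TMM factors over all 20 libraries were 1.028 to 1.048 in the first 27-week set and 0.984 to 1.028 in the 9-week swim-tunnel group. The balance of higher and lower genes without overlap was not tested with them. No gene without counts in all 5 of the 9-week swim-tunnel libraries was counted in all 5 of the first 27-week set. The reverse was true of 2 genes, with at most 5 counts in a library, and neither passed the test.

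The division into rises and falls had no majority that held in every fit. Leaving out 1 of the 10 libraries in turn gave 2119 to 2770 genes. Without replicate 2 of the 9-week swim-tunnel group, the deepest library, 1020 genes rose and 1237 fell, and without its replicate 4 the numbers were 1161 and 958. Without replicate 4 of the first 27-week set 1266 genes rose and 1343 fell, and RLE in place of TMM scaling factors gave 1485 rises and 1554 falls. Falls also led with DESeq2 (1943 against 1878), no low-count filter (1378 against 1368), at least 1 CPM in 5 libraries (1587 against 1492) and all 20 libraries in 1 fit (1475 against 1311). Rises led with no scaling factors (1821 against 1186), limma-voom (1928 against 1546), the length trend removed (1568 against 1495) and limma on repaired RPKM. None of the 3131 genes turned its sign in any of these fits that tested it. The fits reuse the same libraries and the genes had already passed, so an unchanged sign was close to fixed beforehand. Of the 3131, between 2047 (without swim-tunnel replicate 4) and 3056 (DESeq2) passed again. Limma on the deposited RPKM, not among these fits, turned the sign of 27. Changes over 2-fold without replicate 4 of the first set numbered 168 rises and 40 falls.

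**Figure D2:**
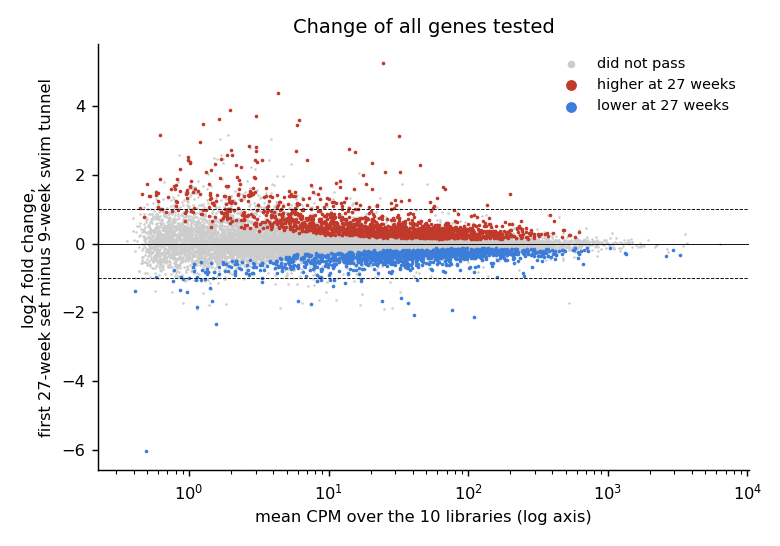
Log2 fold change of each of the 19060 genes (27 weeks, first set, minus 9 weeks, swim tunnel) against its mean CPM on a log axis. Red and blue points passed an adjusted p of 0.05, dashed lines mark 2-fold, and the points beyond them are mostly rises of genes with low counts.

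Rises made up 79.6% of the called genes in the class with the fewest reads and 41.2% in the class with the most. These shares are of the main fit alone and were not counted under other scaling or filters. Levels here are CPM, not corrected for gene length, so these classes follow read depth. Among 1116 genes under 1 CPM, 39 rose and 10 fell, and the median size of the called changes was 1.37 on the log2 scale. Among 5880 genes of 1 to 10 CPM, 407 rose and 202 fell, with a median size of 0.68. In the 9668 genes of 10 to 100 CPM the numbers were 1137 and 851, with a median size of 0.34. At 100 CPM and over falls outnumbered rises, with 285 against 200 of 2396 genes, and the median size was 0.26. Of the 203 rises over 2-fold, 61.1% were in the class of 1 to 10 CPM, 32 genes were in the lowest class, 45 at 10 to 100 CPM and 2 in the highest. At low counts a change has to be large to pass, so the sizes in the lower classes are in part set by the test. The low-count filter kept genes with enough counts in 5 libraries, which can be those of 1 group alone. Numbers and sizes in the lowest class are therefore in part set by the filter too. From the lowest class to the highest, the median log2 fold change of all genes tested was 0.094, 0.045, 0.009 and -0.026. Without replicate 4 of the first set it was 0.036, 0.006, -0.017 and -0.042.

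Among the genes that passed, counted by a fixed rule (1 CPM or more as the mean of whichever group was higher, and no overlap between the groups, met by 1427 rises and 947 falls), the 2 largest rises and the 2 largest falls are described by library. What these genes encode is not annotated in the files. Their levels are CPM on library totals, in the order of replicates 1 to 5. In each of them the lack of overlap between the 2 groups is fixed by the rule.

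Nfu_g_1_009022 had the largest rise. In the 9-week swim-tunnel libraries it stood at 2.55, 0.861, 1.66, 0.389 and 0.970 CPM, from 8 to 47 counts. In the first 27-week set it stood at 64.9, 68.7, 40.5, 13.5 and 50.7 CPM, from 311 to 1671 counts. The lowest 27-week library was replicate 4. Means were 47.7 ± 22.2 CPM (SD, n = 5) at 27 weeks and 1.29 ± 0.839 CPM (n = 5) at 9 weeks. The log2 fold change was 5.25 (SE 0.53, edgeR adjusted p = 0.000471).

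Neither of the groups outside this comparison showed such levels of Nfu_g_1_009022. Unexercised 9-week libraries held 0.268 to 2.09 CPM (median 0.854, n = 5) and the second 27-week set held 0.700 to 3.15 CPM (median 2.81, n = 5). The first set stood above the second by 4.15 on the log2 scale (SE 0.52), and the second above the 9-week swim-tunnel libraries by 1.05 (SE 0.51). These and the like values for the next 3 genes are descriptions, with no test, because the division into sets was selected on expression and the genes were picked by their levels in the first set.

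Nfu_g_1_019957 had the second largest rise, from a very low level. Its 9-week swim-tunnel values were 0.433, 0.201, 0.332, 0.195 and 0.0570 CPM, which are 1 to 8 counts per library. The first 27-week set held 2.85, 3.87, 2.31, 3.96 and 5.32 CPM, or 47 to 103 counts. Means were 3.66 ± 1.16 CPM (SD, n = 5) at 27 weeks and 0.244 ± 0.144 CPM (n = 5) at 9 weeks. The log2 fold change was 3.90 (SE 0.38, edgeR adjusted p = 0.000428).

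The second 27-week set was uneven for Nfu_g_1_019957. Its libraries held 0.617, 1.71, 14.9, 0.295 and 0.606 CPM, the third being the outlying library, and unexercised 9-week libraries held 0 to 0.369 CPM. Between the first and the second set the log2 fold change was -0.43 (SE 1.04) with all libraries and 2.15 (SE 0.45) without the outlying one.

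Nfu_g_1_021184 had the largest fall. The 9-week swim-tunnel libraries held 178, 180, 170, 202 and 159 CPM and the first 27-week set 41.1, 38.2, 39.7, 47.5 and 37.4 CPM. Both groups were tight and far apart, with means of 178 ± 15.9 CPM (SD, n = 5) and 40.8 ± 4.03 CPM (n = 5). The log2 fold change was -2.14 (SE 0.09, edgeR adjusted p = 1.49e-06).

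The low level of Nfu_g_1_021184 was not found in the second 27-week set. There it stood at 166 to 240 CPM (median 233, n = 5), and in unexercised 9-week libraries at 189 to 238 CPM (median 215, n = 5). The log2 fold change of the first over the second set was -2.54 (SE 0.07), and that of the second set over the 9-week swim-tunnel group was 0.38 (SE 0.07).

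Nfu_g_1_003740 had the second largest fall. It stood at 75.2, 73.6, 61.1, 67.0 and 53.0 CPM in the 9-week swim-tunnel libraries and at 20.2, 15.2, 12.9, 12.2 and 17.8 CPM in the first 27-week set. Means were 15.7 ± 3.35 CPM (SD, n = 5) at 27 weeks and 66.0 ± 9.19 CPM (n = 5) at 9 weeks. The log2 fold change was -2.09 (SE 0.15, edgeR adjusted p = 9.16e-05).

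For Nfu_g_1_003740 the 2 sets of 27-week libraries lay on opposite sides of the 9-week swim-tunnel group. The second set held 110 to 189 CPM (median 162, n = 5), above the 9-week swim-tunnel libraries by 1.34 on the log2 scale (SE 0.10). The first set differed from the second by -3.45 on the same scale (SE 0.15). Unexercised 9-week libraries held 106 to 151 CPM (median 120, n = 5), above all 5 swim-tunnel libraries of the same age and overlapping the second set.

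**Figure D3:**
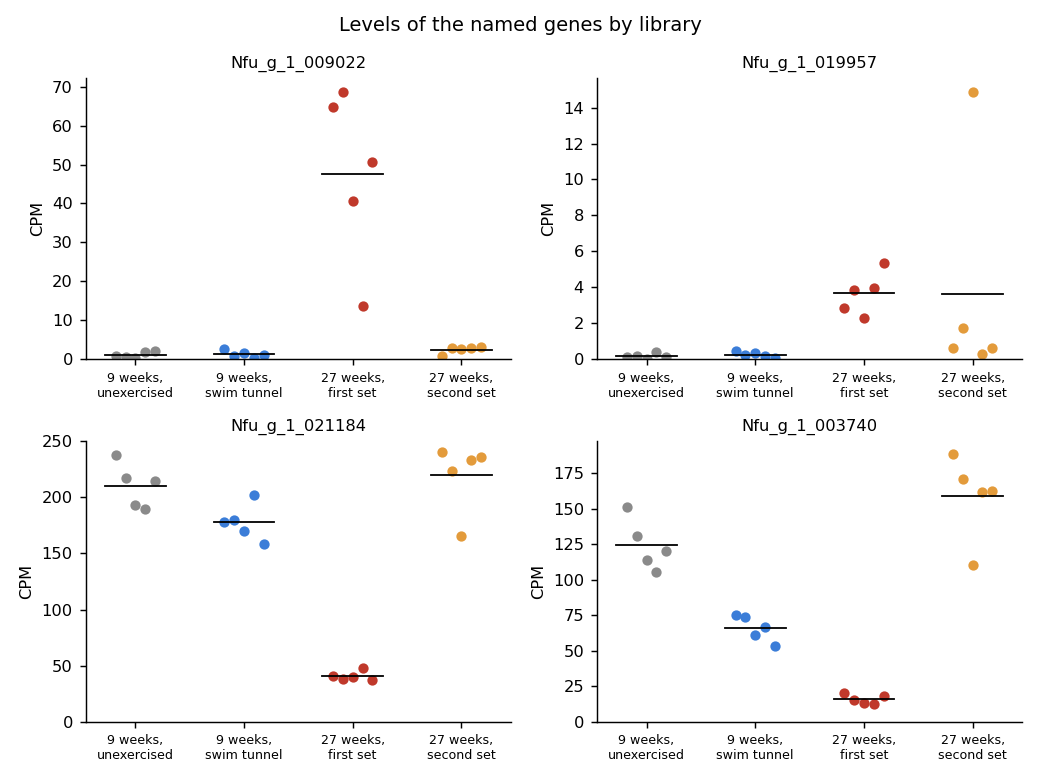
CPM of the 4 named genes in each of the 20 libraries, by group, with a line at each group mean. In Nfu_g_1_009022, Nfu_g_1_021184 and Nfu_g_1_003740 the 5 libraries of the first 27-week set lie apart from all 15 others, and in Nfu_g_1_019957 1 library of the second set, at 14.9 CPM, exceeds them.

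The same 27-week libraries were also set against the unexercised 9-week group, where age and exercise both differ. Of 19240 genes, 4425 (23.0%) passed, with 2475 rises and 1950 falls. Their median size was 0.38 (log2), and 291 rises and 107 falls exceeded 2-fold. This comparison shares the first 27-week set with the main one, so their gene lists are not independent. The named genes had log2 fold changes of 5.36 (SE 0.57) for Nfu_g_1_009022, 4.52 (SE 0.52) for Nfu_g_1_019957, -2.40 (SE 0.08) for Nfu_g_1_021184 and -3.02 (SE 0.15) for Nfu_g_1_003740.

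For the typical gene that passed in the main comparison, unexercised 9-week libraries stood at the level of the exercised ones. Over the 1783 genes that rose, the median log2 CPM relative to the 9-week swim-tunnel mean was -0.03 to 0.02 in the unexercised libraries, and over the 1348 that fell it was -0.05 to 0.03. The mean of the unexercised group was nearer to the 9-week swim-tunnel mean than to the first 27-week set in 1578 of the genes that rose and 1258 of those that fell. On log2 CPM with TMM factors, the 5 libraries of the first 27-week set were clear of all 10 libraries of 9 weeks in 922 of the 1783 rises. The same held in 813 of the 1348 falls. Over all 19060 genes this held for 5.05% above and 4.9% below, and the called genes had been picked on 5 of those 10 libraries. In 34 of the rises and 6 of the falls the unexercised mean lay beyond that of the 27-week libraries. These counts describe genes chosen with 2 of the 3 groups, and no test was made on them.

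Over the genes that changed more than 2-fold, the unexercised libraries stood above the 9-week swim-tunnel mean. Over the 203 rises, the unexercised libraries had a median of 0.23 to 0.56 log2 CPM above the 9-week swim-tunnel mean, against 1.12 to 1.48 in the first 27-week set. The 9-week swim-tunnel libraries themselves lay between -0.08 and 0.24, a range that overlaps the unexercised one. Over the 32 falls the unexercised libraries lay 0.02 to 0.25 above that mean and the first 27-week set between -1.45 and -1.23. Here the 9-week swim-tunnel libraries lay between -0.02 and 0.13, again overlapping the unexercised ones. The 9-week swim-tunnel and 27-week values are fixed by the choice of the genes. The 203 rises were picked in part for low levels in the 9-week swim-tunnel libraries. A difference by exercise was not tested in these genes.

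The other 27-week libraries and the unexercised 9-week libraries took no part in the test that called these genes. The 27-week libraries were divided on expression in both sets, however, so values of the second set are not independent of that choice. Comparing the second 27-week set with the unexercised group shares no library with the main comparison. Exercise and age both differ there. Of 19389 genes, 201 (1.04%) passed, 140 higher (0.722%) and 61 lower (0.315%) in the older fish. With 1 library left out in turn it was 22, 18, 40, 13 and 35 for unexercised replicates 1 to 5 and 159, 26, 320, 23 and 232 for replicates 1 to 5 of the second set. The 320 genes left without replicate 3, the outlying library, were 1.64% of 19492 tested, with 1.02% higher (199 genes) and 0.621% lower.

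The genes of the main comparison moved mostly the same way in these other libraries, by a smaller amount. Of 1775 risen genes tested in both, 1556 (87.7%) were above 0 in the second 27-week set, with a median log2 fold change of 0.18, where 55.1% of all 18985 genes were above 0 at a median of 0.03. Of 1347 fallen genes, 968 (71.9%) were below 0, with a median of -0.09, against 44.9% of all genes. Without replicate 3 of the second set the medians were 0.12 (84.7% above 0, against 51.3% of all genes) and -0.09 (75.7% below 0, against 48.7%). Across the 18985 genes the 2 sets of log2 fold changes had a Spearman correlation of 0.35, or 0.33 over 19014 genes without that library. Genes of 1 library share its depth and composition and are not independent replicates, so the correlation is a description.

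Genes that passed in both comparisons were few in number, and their shares lay above those over all genes. Risen in both were 28 genes. They are 20.0% of the 140 in the second set, where 9.35% of all genes rose in the first, and 1.57% of the 1783 in the first, where 0.722% of all genes rose in the second. Fallen in both were 19, or 31.1% of 61 (7.07% of all genes) and 1.41% of 1348 (0.315% of all genes). Without replicate 3 of the second set the shared numbers were 53 (26.6% of 199 and 2.97% of 1783) and 28 (23.1% of the falls of the second set and 2.08% of 1348). In the opposite direction, 4 genes higher in the second set were lower in the first, a number that was also 4 without that library, and 0 genes lower in the second set were higher in the first.

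The changes over 2-fold were also read in the second set. Of the 203 rises over 2-fold, 197 were tested against the unexercised group without replicate 3 of the second set, and 165 of them (83.8%) were above 0 with a median log2 fold change of 0.38. With replicate 3 the median over 195 genes was 1.08, and that library stood at 2.38 log2 CPM above the 9-week swim-tunnel mean over these genes, where the other 4 of its set stood at 0.56 to 1.17. As rises, 0 of the 195 passed with replicate 3 (0.722% of all genes) and 9 of the 197 (4.57%) without it (1.02% of all genes). Of the 32 falls over 2-fold, 31 were tested, and the median was -0.19 without replicate 3 and -0.13 with it. Below 0 were 21 of the 31 (67.7%, against 48.7% of all genes) without replicate 3, and 10 were above. With replicate 3, 19 (61.3%, against 44.9% of all genes) were below 0 and 12 above. In the libraries of the second set these 32 genes lay between -0.13 and 0.06 of the 9-week swim-tunnel mean, a range that includes it.

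**Figure D4:**
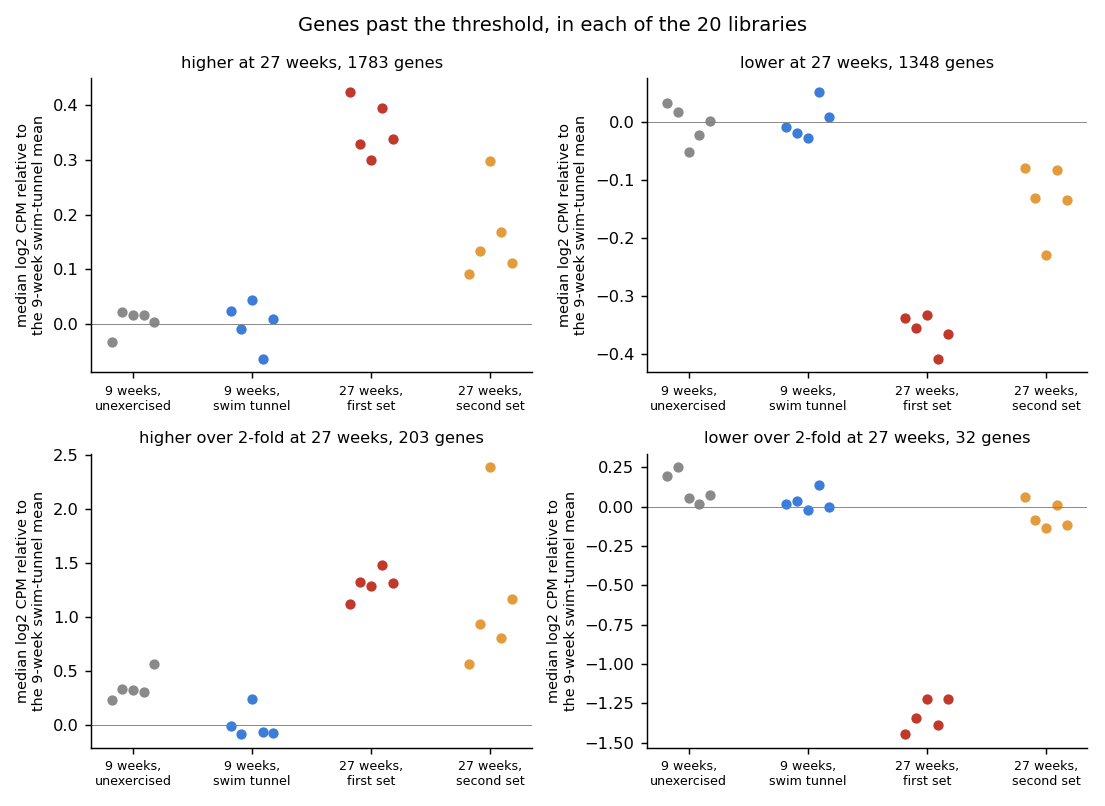
Median log2 CPM over the genes that rose or fell in the main comparison, relative to the mean of the 9-week swim-tunnel libraries, for each of the 20 libraries. The first 27-week set and the 9-week swim-tunnel group chose the genes, and the second 27-week set lies between them for the full lists, from 0.09 to 0.30 over the rises and from -0.23 to -0.08 over the falls.

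All 10 libraries of 27 weeks carry the same label, so what separates the 2 sets cannot be told from the labels. The difference between them is no result here, since the division was selected on those values.

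Gene length went with the direction of change. Lengths are those implied by the deposited counts and RPKM. The median length was 2689 bp for risen genes, 3725 bp for fallen genes and 2703 bp for all genes tested. With all libraries of the comparison, rises outnumbered falls below 6000 bp, and made up 67.9% of the called genes of 800 to 1500 bp. Directions by length class were counted in the main fit with TMM factors alone. Over all genes the leading direction changed with scaling and filter, so the class majorities may change too. Falls outnumbered rises above it, with 239 against 120 among 2045 genes of 6000 to 9000 bp and 78 against 34 among 851 genes of 9000 bp and over. The median log2 fold change ran from 0.04 in genes of 1500 to 3000 bp to -0.06 in genes of 9000 bp and over, and without replicate 4 of the first set from 0.01 to -0.09. In the other classes below 6000 bp the sign of the median turned without that library. It went from 0.021 to -0.005 under 800 bp, from 0.026 to -0.002 at 800 to 1500 bp and from 0.007 to -0.016 at 3000 to 6000 bp. The median over all genes tested also went from 0.011 to -0.016, so the turn was not particular to these classes. Long genes also had more reads, with a median of 87.7 CPM at 9000 bp and over against 7.34 CPM below 800 bp, so length and read depth move together here.

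Among the 10 libraries compared, the steepest length trends were those of 3 libraries of the 9-week swim-tunnel group. The slope of log2 CPM on log2 length was -0.00488, 0.00173, 0.00235, -0.000182 and 0.000408 per doubling of length in replicates 1 to 5 of the first 27-week set. In the 9-week swim-tunnel libraries it was 0.00139, 0.0204, 0.00127, 0.0241 and 0.0179. Replicates 2, 4 and 5 of the 9-week group were above all 27-week libraries and its replicates 1 and 3 lay within their range. The difference of -0.0131 between the means did not pass an exact permutation test (p = 0.0556, two-sided, adjusted p = 0.278 over 5 measures of libraries, smallest possible p 0.00794). After removal of each library's length trend 3063 genes passed in edgeR, 1568 higher and 1495 lower, of which 2746 were among the 3131 and had the same sign.

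**Figure D5:**
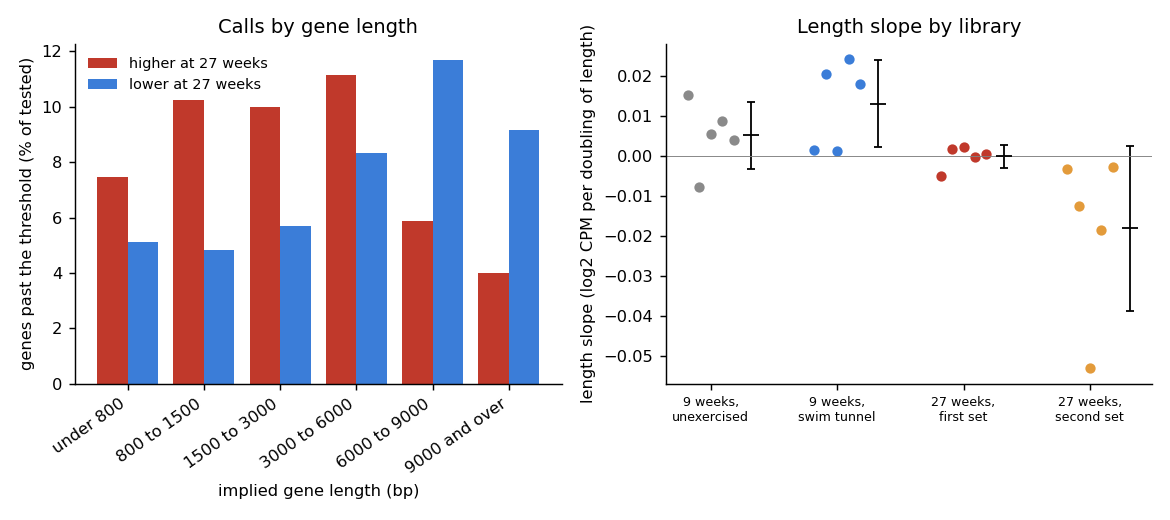
Left, the share of genes tested that rose or fell at 27 weeks in the first set, by implied gene length. Right, the length slope of each of the 20 libraries by group, with mean and SD; the first 27-week set lies between -0.00488 and 0.00235, and 3 of the 5 swim-tunnel libraries of 9 weeks lie above it.

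Libraries of the first 27-week set were spread more unevenly than those of 9 weeks, but the mean spread did not differ past the threshold. A library's median absolute deviation from the mean of the other 4 of its group was 0.184, 0.116, 0.136, 0.165 and 0.115 log2 CPM in the first 27-week set, with replicates 1 and 4 the farthest out. It was 0.128, 0.131, 0.132, 0.139 and 0.139 log2 CPM in the 9-week swim-tunnel group. The means were 0.143 ± 0.0305 (SD, n = 5) and 0.134 ± 0.00503 (n = 5), and their difference of 0.00957 did not pass (exact permutation p = 0.516, two-sided, adjusted p = 0.675). The biological coefficient of variation that edgeR fitted within a group was 0.206 in the first 27-week set, 0.195 in the 9-week swim-tunnel group, 0.185 in the unexercised group and 0.397 in the second 27-week set with its outlying library.

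Replicates 1 and 4 of the first 27-week set were most often the highest library among the rises. Replicate 4 was the highest of the 5 in 36.2% of the 1783 genes that rose and replicate 1 in 33.4%, where over all genes tested they were the highest in 26.1% and 27.7%. Among the 203 rises over 2-fold, replicate 4 was the highest in 80 genes, while replicate 1 was the highest in 22 and the lowest in 64. In 151 genes replicate 4 stood 4-fold or more above the average of the other 19 libraries. Of these, 128 were tested and 24 (18.8%) rose in the comparison, against 9.35% of all genes. They were picked by a high level in a library of the first set, so that share is in part set by the choice. Without replicate 4, 26 of the 128 passed in either direction, where 2609 of all 19146 genes tested passed. The part of replicates 1 and 4 in the remaining rises was not tested.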

How the data were processed

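The authors deposited raw read counts and RPKM per gene for all 20 libraries, and columns were matched to samples by title. Software in the submitters' processing notes comprises STAR 2.4.1d, featureCounts 1.4.6-p4 and bcl2fastq 1.8.4; libraries were made with the TruSeq kit v2, per the labels' protocols. No source used here gives the genome build, gene annotation or strand setting, so near-identical copies, overlapping genes and antisense partners cannot be told apart. The deposited RPKM were divided by totals of the wrong libraries in all but 5.00% of values (error up to 2.32-fold); they served only for gene lengths and, as deposited or repaired, as alternatives.

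Groups, members and lists were chosen with earlier results of these data known. edgeR 4.0.16 (R 4.3.3) was run on the libraries compared, with filterByExpr, TMM, the two-sided quasi-likelihood test and Benjamini-Hochberg adjustment at 0.05. The step was tested on counts simulated at the fitted trend of dispersion, without further differences in dispersion between genes. It recovered 47.8% of 1.5-fold, 77.6% of 2-fold and 98.5% of 4-fold changes, with 10 false calls among 18932 genes. Changed genes were drawn only from those with a mean of at least 1 CPM, so recovery below that level was not measured. Library measures used log2 CPM (prior count 2) and exact permutation tests (SciPy 1.17.1). Replicate pairs differed beyond sampling noise (chi-square per degree of freedom at least 7.57), and every library counted as 1 replicate. That check cannot show that each library came from another fish. Alternatives were other scaling, filters, DESeq2 1.42.0, limma 3.58.1, all 20 libraries, length correction and single libraries left out. Named genes were the 2 largest rises and 2 largest falls within the limits stated beside them. Each SE of a log2 fold change was its size divided by the square root of the quasi-likelihood F statistic, not an estimate given by the fit.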

Additional observations from a re-analysis of the deposited data

Results flagged for a closer look

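In 2 of 18 groups of 5 values 1 library lay far from the rest, where chance gives about 1 in 20. Both were replicate 2 of the 9-week swim-tunnel group, with 34843199 counts and 22032 genes detected. These are 2 measures of 1 library and are not independent, so 2 of 18 cannot be read against that rate.

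For Nfu_g_1_003740 the 5 libraries of the first 27-week set all lay below the 9-week swim-tunnel mean and the 5 of the second set all above it. The log2 fold change of the first over the second set was -3.45. This difference was not tested, since the 2 sets were divided on expression already seen and the gene was picked by its level in the first set.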

How the results depend on the processing

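The count of 3131 genes stayed within 1.5 times under 21 of 22 alternatives, DESeq2 (3821) and limma-voom with library weights (3474) included, and leaving out 1 library gave 2119 to 2770. Limma on the deposited RPKM plus 1, whose values are not on 1 scale, gave 34 genes. Removing the length trend without replicate 4 of the first set, chosen after seeing the data, gave 2633. The 4 named genes passed under all 22, at adjusted p of at most 0.0187. Leaving out 1 library gave 3359 to 3996 genes for the first set against unexercised fish and 13 to 320 for the second set against unexercised fish. The first against the second set, a division selected on expression and so no test, gave 1150 genes, and 394 to 1616 with 1 library left out. For the second set against 9-week swim-tunnel fish (114 genes) leaving out 1 library gave 26 to 264: 34, 31, 26 and 30 without swim-tunnel replicates 1 to 4, and 262, 64, 264, 46 and 26 without second-set replicates 1 to 5. The length slope difference ranged from -0.0161 to -0.0104, with exact permutation p of 0.0476 without swim-tunnel replicate 1 or 3 or first-set replicate 3. The spread difference ranged from -0.00536 to 0.0265 and turned to -0.00536 without replicate 1 of the first set. No paired analysis was possible because replicate numbers follow listing order only. For the values that moved, the cause was not tested.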
